A study of Mus musculus with 12 samples.

Results

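The Ly6 genes form a family of small surface proteins, and 7 members that lie together on mouse chromosome 15 were followed here: Ly6a, Ly6d, Ly6e, Ly6h, Ly6k, Psca and Gpihbp1. Every probe set whose annotation named one of these genes alone was taken, which gave 8 probe sets for 6 of the 7 genes, among 45037 probe sets in all. Ly6e and Ly6k had 2 probe sets each, and Ly6a was named by no probe set in the annotation used and was not analysed here. The family was chosen by the rise of Ly6d in these same arrays, rank 6 of 18193 genes by log2 difference, so its difference is given as a description without a test.

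The samples were 6 spontaneous hepatocellular carcinomas (HCC) and 6 normal livers of B6C3F1 mice, a hybrid strain used in long carcinogenicity studies. The tissues came from a National Toxicology Program bioassay of 2 years, so both groups share strain and study length. The labels list no treatment for either group. RNA of each liver was measured on 1 single-colour Affymetrix array. The labels do not give the sex of the mice, nor whether any normal liver came from a mouse that also carried a tumour, and p-values measure only the spread between these samples.

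Proteins of the Ly6 family fold into a compact, disulfide-bonded domain, which they share with the urokinase receptor uPAR. Most are held on the outer face of the cell membrane by a glycosylphosphatidylinositol (GPI) anchor, and some are secreted. Members are best known as markers of blood cell lineages, of stratified epithelia and of sperm, and several bind a partner protein at the cell surface. In the liver, as elsewhere, a change in bulk RNA can reflect fewer cells of a type or less RNA per cell, which cannot be told apart here.

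Levels are given as log2(intensity + 16) after quantile normalization, a scale whose floor is 4, and differences are HCC minus normal liver on that scale. The deposited intensities had the same 2% trimmed mean of 500.0 on every array, and the file holds no detection call for single probe sets. The hepatocyte marker list was high in both groups, with a mean log2 level per array between 14.52 and 15 in HCC and between 14.90 and 15.07 in normal liver. None of its 10 measured genes was called by limma, against 5.27% of all genes called higher and 5.49% lower. Several of the 10 lay near the top of the scale, where a rise could hardly show. Apoa1, named as an example, averaged 16.05 in HCC and 16.06 in normal liver, with an SD of 0 in normal liver. Of the 10 differences 5 were positive, but the 3 with an unadjusted limma p under 0.05 were all lower in HCC. Tyrosine aminotransferase (Tat) had the smallest p of the list, at a difference of -1.14 (limma adjusted p = 0.0503). The others were Cps1 at -0.86 and Asgr1 at -0.40, named for their p. Tat was called lower in 8 alternative settings that kept all 12 arrays (adjusted p from 0.0222 to 0.0457). With 1 array left out it was called lower only without HCC 3 or HCC 5 (adjusted p down to 0.0167). The list held 2 lower calls without dim probe sets or with a trended robust model. Of the 12 arrays, HCC 1, HCC 4, normal 1 and normal 3 lacked signal from Y-linked genes, with a mean log2 level of 4.17 to 4.85 against 8.96 to 9.77 in the others.

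Ly6d encodes the ThB antigen, a surface protein of early B lineage cells and of keratinocytes. Its log2 level had a lowest value of 11.46, a median of 12.83 and a highest value of 14.70 in the 6 HCC, against 6.70, 7.61 and 7.95 in the 6 normal livers. All 6 HCC lay above all 6 normal livers, and the gap between the lowest tumour and the highest normal liver was wider than the whole range of the normal livers. The tumours averaged 13 ± 1.29 and the normal livers 7.45 ± 0.51 (SD, n = 6 each), a difference of 5.55 ± 0.51 (SE), or 46.9-fold. In deposited intensity, Ly6d ran between 2760 and 25500 in HCC and between 98.1 and 210.0 in normal liver. All 12 values were above the floor of the scale. With pseudocounts of 1 and 64 in place of 16 it was 5.69 and 5.20.

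**Figure D1:**
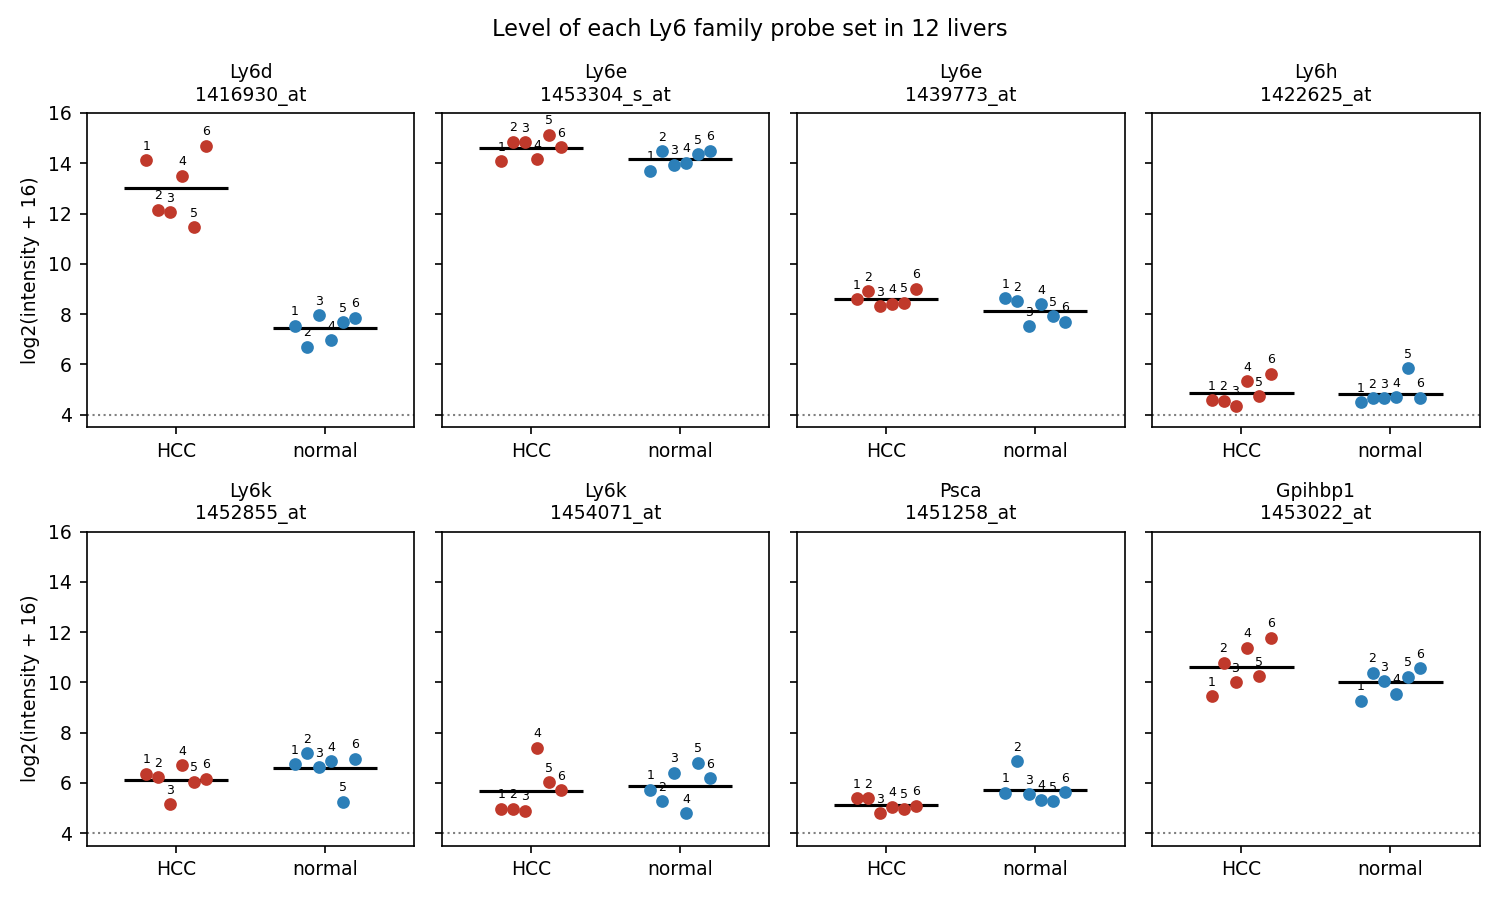
Log2(intensity + 16) after quantile normalization (vertical axis) of the 8 probe sets in HCC (red) and normal liver (blue); each point is 1 array with its replicate number, the bar is the group mean and the dotted line is the floor of 4. In the Ly6d panel the 6 tumours sit between 11.46 and 14.70 and the 6 normal livers between 6.70 and 7.95, while in the other 7 panels the groups overlap.

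The tumours differed among themselves in Ly6d more than normal livers did. HCC 6 exceeded the normal mean by 7.25, HCC 1 by 6.66 and HCC 4 by 6.06. HCC 2 exceeded it by 4.71, HCC 3 by 4.62 and HCC 5 by 4.01. These differences correspond to 152.3-fold in HCC 6 and 16.2-fold in HCC 5. The step of 1.35 between HCC 4 and HCC 2 was the widest in this order and exceeded the SD of 0.51 among normal livers by more than 2 times. The steps of 0.59 between HCC 6 and HCC 1, 0.60 between HCC 1 and HCC 4 and 0.60 between HCC 3 and HCC 5 were close to that SD, and that of 0.09 between HCC 2 and HCC 3 was within it. With 1 array per tumour, no error can be given for a single tumour.

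The order of the tumours was set beside that of Glul, glutamine synthetase, a target of beta-catenin signalling. In log2 level, HCC 6 had 14.62 for Glul, HCC 1 had 15.17 and HCC 4 had 15.10, while HCC 2 had 11.75, HCC 3 had 11.40 and HCC 5 had 12.03, against 13.29 to 14.33 in normal livers. The 3 tumours with the highest Ly6d thus lay above all normal livers in Glul, and the 3 with the lowest Ly6d lay below all of them. HCC 1 and HCC 4, of the upper 3, were also the only tumours without Y-linked signal. HCC 6 and the lower 3 had it. The split thus overlaps in part with Y-linked signal, and their parts were not tested. Ly6d itself was far above normal liver in all 6. For Afp, which encodes the oncofetal marker alpha-fetoprotein, HCC 6 had a log2 level of 14.42, HCC 1 had 14.83 and HCC 4 had 14.82, while HCC 2 had 12.76, HCC 3 had 13.93 and HCC 5 had 13.07, against 4.27 to 6.48 in normal livers. The same 3 tumours were again the highest. The step from HCC 6, at 14.42, to HCC 3, at 13.93, was small beside the Afp range among normal livers. This split is therefore no clear match to that of Ly6d. For Lpl, lipoprotein lipase, HCC 6, HCC 1 and HCC 4 were not the upper 3, and HCC 3 was the highest at 14.46. HCC 4 had 14.35, HCC 1 had 14.25 and HCC 6 had 14.04, while HCC 5 had 13.74 and HCC 2 had 13.25. These are descriptions of 6 tumours, which fall into separate clusters in Glul, and no correlation was computed.

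Genes whose pattern was closest to that of Ly6d were found by the mean absolute difference, over the 12 arrays, between levels taken relative to the mean of normal livers. The closest was Gpc3, glypican 3, an oncofetal heparan sulfate proteoglycan held by a GPI anchor as Ly6d is, at a mean absolute difference of 0.488. Scd2, a fatty acid desaturase, followed at 0.659 and Galnt6, an enzyme that starts O-linked glycosylation, at 0.689. HCC 6 exceeded the normal mean of Gpc3 by 6.15, HCC 1 by 6.51 and HCC 4 by 6.45, while HCC 2 did so by 4.76, HCC 3 by 4.92 and HCC 5 by 3.48. Its tumours fell in the same upper and lower 3 as those of Ly6d, with HCC 5 the lowest in both. Because Gpc3 was picked for its closeness to Ly6d, this likeness is in part built in by the choice. Scd2 was more even, between 4.27 and 5.30 above the normal mean, and Galnt6 ran between 3.01 and 6.20. Neither shared the split. Scd2 stood at 5.20 in HCC 2 against 4.54 in HCC 4, and Galnt6 at 5.25 in HCC 2 against 4.88 in HCC 6.

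**Figure D2:**
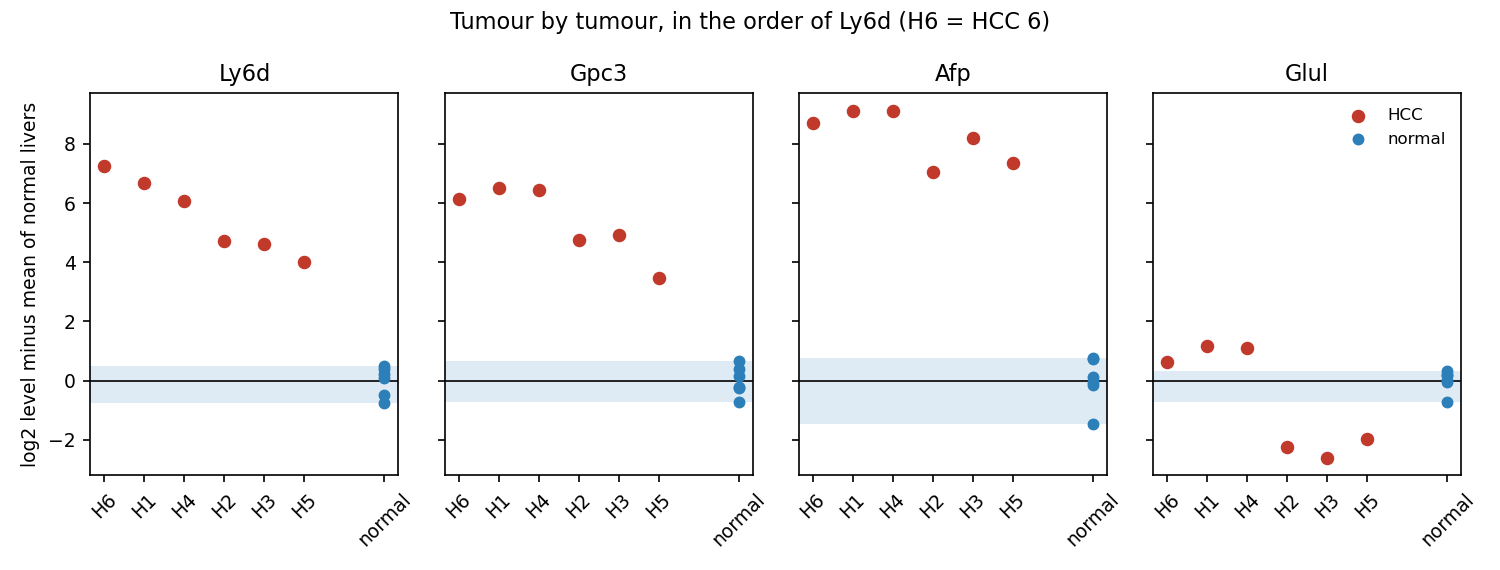
Log2 level minus the mean of the 6 normal livers (vertical axis) of Ly6d, Gpc3, Afp and Glul in the 6 HCC (red), placed in descending order of Ly6d, and in the 6 normal livers (blue points, with their range as a band). HCC 6, HCC 1 and HCC 4 are the upper 3 tumours in each panel, and in Glul the other 3 lie below the band. In Afp the step from HCC 6 to HCC 3 is small beside the band. HCC 1 and HCC 4 are the only tumours without Y-linked signal. Gpc3 was picked for its closeness to Ly6d.

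The difference in Ly6d was 5.30 between the 4 HCC and 4 normal livers with that signal and 6.07 between the 2 and 2 without it, given as a description. For the other 7 probe sets an interaction of group and Y-linked signal was tested with limma, and none passed (adjusted p from 0.914 to 0.982).

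Markers of cell types known for Ly6d were measured beside it. The mean log2 level per array of B cell markers lay between 6.81 and 7.2 in HCC and between 6.56 and 7.09 in normal liver. Of 9 measured genes 1 was higher and 1 lower, against 5.27% and 5.49% of all genes. Blnk, an adaptor of the B cell receptor, rose by 2.52 ± 0.36 (SE, limma adjusted p = 0.00125), with all 6 HCC above all normal livers, and Fcmr, the receptor for IgM, fell by 1.25 ± 0.28 (adjusted p = 0.0153). The list had a median difference of -0.06, with 4 of 9 positive. Ms4a1 and Cd79a, named as examples and not by size or p, overlapped between the groups and were not called. Ms4a1, which encodes CD20, lay between 5.16 and 6.99 in HCC and between 5.90 and 7.68 in normal liver, and Cd79a between 5.47 and 7.38 in HCC and between 6.16 and 6.93 in normal liver.

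As a mean per array, squamous and urothelial markers lay between 6.29 and 7.03 in HCC and between 6.29 and 6.74 in normal liver. Of 13 measured, 1 passed, against 5.27% of all genes called higher and 5.49% lower. The gene that passed was Sprr1a, a component of the cornified envelope. It rose by 1.71 ± 0.37 (SE, limma adjusted p = 0.0137), with all 6 HCC above all normal livers. The list had a median difference of -0.06, with 5 of 13 positive. The basal keratins Krt5 and Krt14 and their regulator Trp63 were named as examples, not by size or p. They overlapped between the groups and were not called. Krt5 lay between 4.92 and 7.37 in HCC and between 4.49 and 7.32 in normal liver. Krt14 lay between 4.91 and 6.65 in HCC and between 5.27 and 7.03 in normal liver. Trp63 lay between 4.88 and 6.79 in HCC and between 4.86 and 6.79 in normal liver.

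Biliary and progenitor markers had a mean per array between 6.60 and 8.21 in HCC and between 6.17 and 6.78 in normal liver. Of 10 measured genes 2 were higher and none lower, against 5.27% and 5.49% of all genes. The median difference of the list was 0.46, against -0.04 over all genes. Prom1, the progenitor marker CD133, rose by 4.29 ± 0.64 (SE, adjusted p = 0.00168) with 5 of 6 HCC above all normal livers. Cd24a, a GPI-anchored sialoprotein, rose by 2.06 ± 0.49 (adjusted p = 0.0215), a call that was lost without normal 5 (adjusted p = 0.0504). Of the 10 differences, 9 were positive. Krt19, the keratin of bile ducts, was not called and was named as an example, not by size or p. It lay between 5.0 and 7.84 in HCC and between 6.76 and 7.09 in normal liver. HCC 6, HCC 5 and HCC 3 had the highest means of this list, at 1.73, 1.71 and 1.2 above normal liver, against 0.52 in HCC 1, 0.51 in HCC 2 and 0.12 in HCC 4, so the order of the list mean differed from that of Ly6d. Prom1, 1 gene of this list, had log2 levels of 13.16 in HCC 1, 12.63 in HCC 6 and 12.28 in HCC 4, the upper 3 tumours of Ly6d. The other 3 tumours had 11.96 or less. The step from HCC 4 to HCC 3, at 11.96, was small beside the Prom1 SD of 1.16 among normal livers and 1.33 among HCC. This split is therefore no clear match to that of Ly6d. The part of any of these cell types in the Ly6d difference was not tested beyond these values.

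Ly6e, a broadly expressed member that is induced by interferon and is the receptor of syncytin-A in the mouse placenta, was bright in every liver. Its brighter probe set had a lowest log2 level of 14.08, a median of 14.74 and a highest of 15.14 in HCC, against 13.71, 14.19 and 14.50 in normal liver. In 4 of 6 HCC it exceeded all normal livers, while HCC 1 and HCC 4 lay within their range. The mean difference was 0.45 ± 0.22 (SE, 95% interval -0.03 to 0.92, limma adjusted p = 0.246). The dimmer probe set gave 8.31, 8.52 and 9.02 in HCC against 7.52, 8.15 and 8.62 in normal liver, a difference of 0.51 ± 0.22 (SE, 95% interval 0.02 to 0.99, adjusted p = 0.194). Both probe sets thus leaned upward without passing the test, and neither interval reached 1 on the log2 scale. The brighter one carries the suffix of probe sets that can match more than one transcript, and the RefSeq annotation lists a pseudogene copy, Ly6e-ps1, on chromosome 12, so its signal may be shared.

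Genes induced by interferon were counted beside Ly6e. Of 23 measured, 4 rose and none fell, against 5.27% and 5.49% of all genes. The median difference was 0.60, against -0.04 over all genes. The number that rose was 8 with a pseudocount of 64, without dim probe sets or with a trended robust model. The 3 largest were the chemokine Cxcl9 at 2.22 ± 0.44, the antiviral protein Ifit2 at 1.88 ± 0.42 and the ISG15 protease Usp18 at 1.76 ± 0.42 (SE, limma adjusted p from 0.00895 to 0.0212). Usp18 lost its call in the exact permutation test (adjusted p = 0.0629). The list mean per tumour was highest in HCC 6, at 1.70 above normal liver, and HCC 5, at 0.89, and between 0.19 and 0.57 in the other 4. By its brighter probe set, Ly6e was highest in HCC 5, at 0.97 above its normal mean, and stood at 0.47 in HCC 6. The dimmer probe set was instead highest in HCC 6, at 0.91, and stood at 0.34 in HCC 5.

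Gpihbp1 is made by endothelial cells of capillaries, where it binds lipoprotein lipase and carries it to the vessel lumen. Its log2 level had a lowest value of 9.45, a median of 10.51 and a highest of 11.77 in HCC, against 9.27, 10.13 and 10.56 in normal liver. HCC 6, HCC 4 and HCC 2 exceeded all normal livers and the other 3 lay within their range. The mean difference of 0.60 ± 0.38 did not pass (SE, 95% interval -0.22 to 1.41, limma adjusted p = 0.378). It was 0.36 without HCC 6 and 0.83 without HCC 1, the extremes with 1 array left out. The SD was 0.87 among HCC and 0.50 among normal livers.

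Its ligand moved differently. Lpl, lipoprotein lipase, lay between 13.25 and 14.46 in HCC and between 8.84 and 12.05 in normal liver, with all 6 HCC above all normal livers, and rose by 4.10 ± 0.45 (SE, limma adjusted p = 0.000239). Gpihbp1 thus varied more widely than Lpl among the tumours. Of 17 measured genes of the lipoprotein lipase pathway, 3 rose and 2 fell, against 5.27% and 5.49% of all genes. The list had a median difference of -0.10. The fatty acid binding proteins Fabp5 and Fabp4 rose by 3.10 ± 0.33 and 2.46 ± 0.50 (SE, adjusted p = 0.000204 and 0.00913). Apoa5, an apolipoprotein that promotes the action of Lpl, fell by 1.81 and endothelial lipase (Lipg) by 1.49 (adjusted p = 0.0225 and 0.0254), both named after their values were seen. Only 1 gene of the list was called lower without HCC 1, HCC 3, HCC 6, normal 1 or normal 5.

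Endothelial markers were followed because Gpihbp1 is an endothelial gene. Of 18 measured, 1 rose and 2 fell, against 5.27% and 5.49% of all genes, with a median difference of 0.14. The number that rose was 3 without HCC 1 and 2 without dim probe sets. Cd34, a marker of capillary endothelium and progenitors, rose by 2.38 ± 0.50 (SE, adjusted p = 0.012). The genes that fell are markers of liver sinusoids, the lectin Clec4g by 2.13 and the scavenger receptor Stab2 by 1.11 (adjusted p = 0.0248 and 0.0259). Each of these 2 calls was lost without any of 4 single arrays, normal 2, normal 3, normal 5 or HCC 4 for Clec4g (adjusted p up to 0.0538) and normal 2, normal 3, normal 5 or normal 6 for Stab2 (up to 0.0556). Set against normal liver, the list mean was lowest in HCC 1, at -0.86, and highest in HCC 6, at 0.80, the tumours in which Gpihbp1 was lowest and highest, at -0.55 and 1.76. In HCC 4, however, Gpihbp1 was 1.37 above normal with a list mean of only 0.21. The part of endothelial content in Gpihbp1 was not tested.

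**Figure D3:**
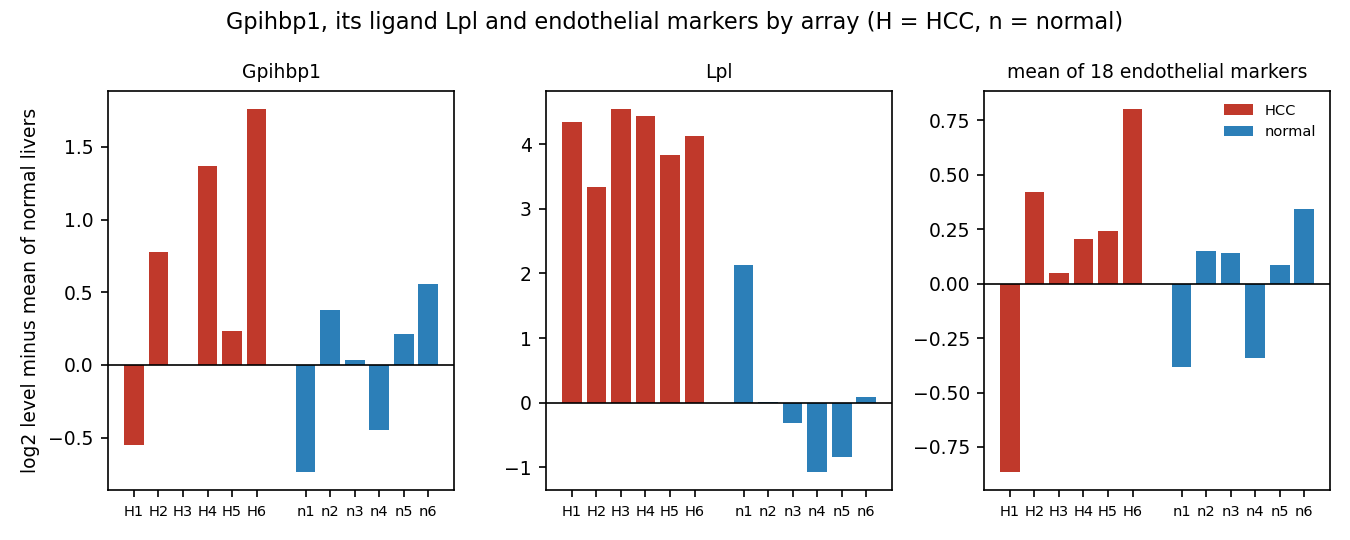
Log2 level minus the mean of the 6 normal livers (vertical axes, which differ in scale) of Gpihbp1, of Lpl and of the mean of 18 endothelial markers in each HCC (red) and normal liver (blue). Lpl is more than 3 above normal in every tumour, while Gpihbp1 and the endothelial markers run from below 0 in HCC 1 to their highest in HCC 6.

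Psca, prostate stem cell antigen, is a surface protein of epithelia of the stomach, bladder and prostate. Its log2 level was 4.79, 5.07 and 5.40 as the lowest, median and highest value in HCC, against 5.27, 5.58 and 6.86 in normal liver. Apart from normal 2, all arrays lay below 6, in the lower part of the scale. In 4 of 6 HCC it lay below all normal livers. The mean difference of -0.59 ± 0.25 did not pass (SE, 95% interval -1.14 to -0.05, limma adjusted p = 0.176). It rested in part on normal 2, at 6.86 where the other 5 normal livers lay between 5.27 and 5.62, and was -0.36 without that array (adjusted p = 0.23).

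Ly6k, a protein of male germ cells that sperm function requires, gave low levels with both probe sets. The brighter one had 5.16, 6.19 and 6.70 as the lowest, median and highest log2 level in HCC, against 5.24, 6.80 and 7.17 in normal liver, a difference of -0.49 ± 0.33 (SE, 95% interval -1.2 to 0.22, adjusted p = 0.407). It was -0.30 without HCC 3 and -0.76 without normal 5, which stood below the other normal livers (adjusted p = 0.623 and 0.096). The other had 4.89, 5.34 and 7.40 in HCC, against 4.80, 5.95 and 6.79 in normal liver, a difference of -0.20 ± 0.45 (95% interval -1.17 to 0.78, adjusted p = 0.846). The groups overlapped in both, and HCC 4 alone stood above all normal livers in the second.

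Ly6h, a brain protein that modulates nicotinic acetylcholine receptors, was near the floor of the scale in both groups. Its log2 level was 4.35, 4.65 and 5.63 as the lowest, median and highest value in HCC, against 4.49, 4.66 and 5.86 in normal liver. The mean difference was 0.02 ± 0.28 (SE, 95% interval -0.58 to 0.62, adjusted p = 0.976), and its sign is not settled, since it was -0.058 with median centring. Intensities between 4.69 and 33.6 in HCC and between 6.34 and 42.9 in normal liver put it among the dim probe sets.

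Leaving Ly6d aside, 0 of the 7 probe sets of the other 5 measured members were called by limma, against 4.38% of all probe sets called higher and 3.95% called lower. At an unadjusted p under 0.05 there were 2, the dimmer probe set of Ly6e and that of Psca, and by an exact permutation test 1, Psca, with 0 after adjustment. In none of the 7 were the groups fully separated, against 3.41% of all probe sets with all HCC above and 3.08% with all HCC below. Differences ran from -0.59 to 0.60, 4 of them positive and 3 negative. With 7 probe sets these shares are too few to set the members apart from the background.

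The wider family was described by a list of 32 other genes with the Ly6 or uPAR domain, of which 22 were measured by a probe set naming 1 gene. None rose and 1 fell by limma, with 6 at an unadjusted p under 0.05, against 5.27% of all genes called higher and 5.49% called lower. The median difference was -0.16, and the differences lay between -0.74 and 1.09, with 9 positive and 13 negative. The gene that fell was Ly6g2, at 10.07 to 10.73 in HCC and 10.60 to 11.33 in normal liver, a difference of -0.65 ± 0.18 (SE, limma adjusted p = 0.0411). It lost that call with the deposited scaling (adjusted p = 0.0502), in the exact permutation test (0.0629) and without any of 9 single arrays (up to 0.0865). The list held 1 higher call with the deposited scaling or without HCC 2 and 2 without normal 6, and 2 lower calls without dim probe sets or with a trended robust model. Plaur, the urokinase receptor itself, named after its values were seen, was at 0.87 with 5 of 6 HCC above all normal livers and did not pass (adjusted p = 0.131).

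**Figure D4:**
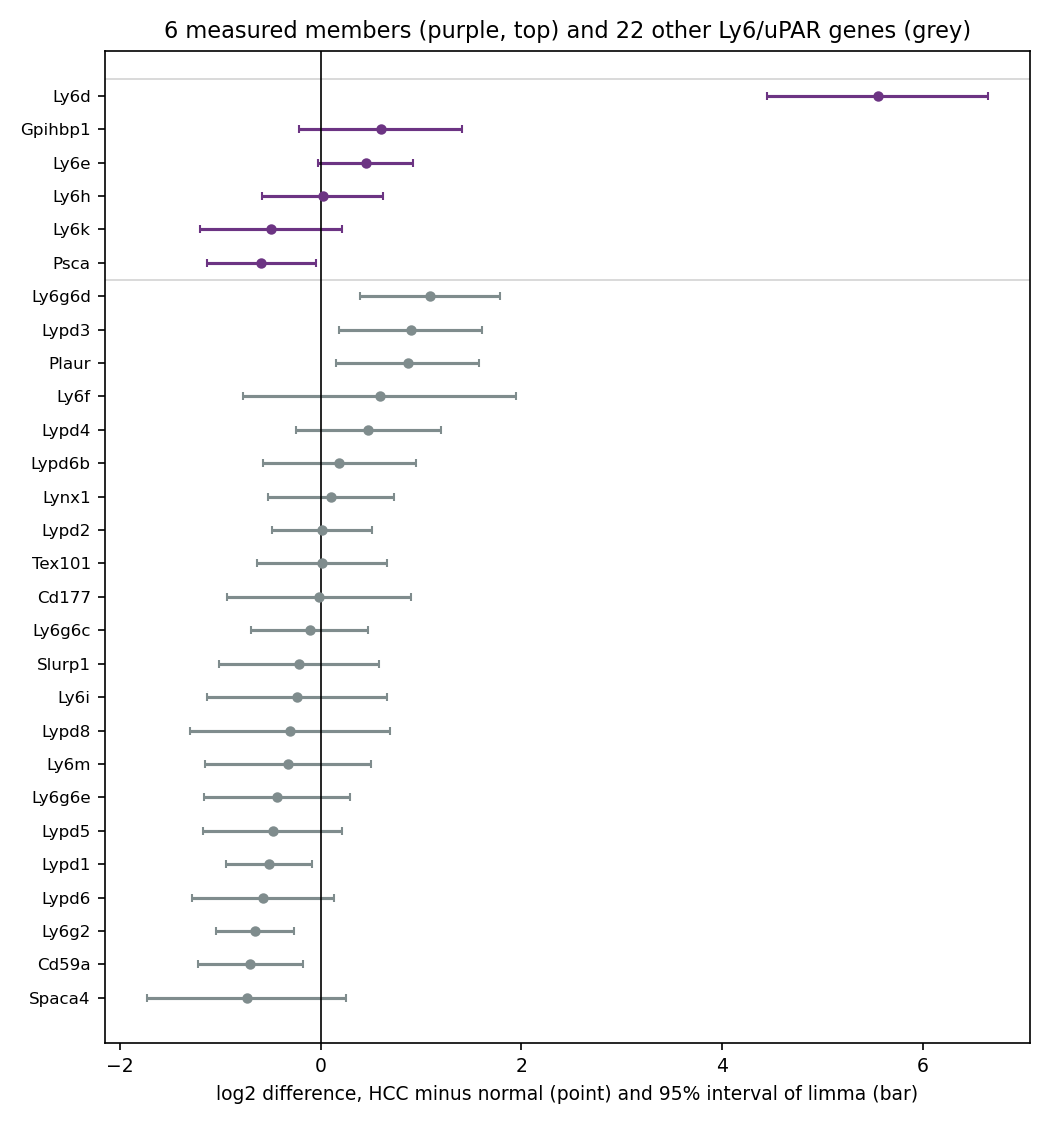
Log2 difference, HCC minus normal liver (horizontal axis), of the 6 measured members by their brightest probe set (purple) and of 22 other Ly6/uPAR genes (grey); points are limma estimates and bars their 95% intervals. Ly6d stands at 5.55, and the other 27 genes lie between -0.74 and 1.09.

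On chromosome 15 the members lie in the order Psca, Ly6d, Ly6k, Ly6e, Ly6a, Ly6h and Gpihbp1 in the RefSeq annotation of GRCm38.p6. The measured genes on either side of Ly6d are relatives, Lynx1, a modulator of nicotinic receptors, and Ly6g6g. Ly6g6g was not on the list of other Ly6/uPAR genes and is counted below with the remaining neighbours. Lynx1 differed by 0.10 (limma adjusted p = 0.88) and Ly6g6g by 0.05 (adjusted p = 0.962). Beside the other members, Them6 next to Psca was at -0.46, Cyp11b1 next to Ly6k at -0.08, Ly6m and Ly6i on either side of Ly6e at -0.33 and -0.24, and Zfp41 beyond Gpihbp1 at -0.16, with adjusted p from 0.198 to 0.928. The gene before Psca, 4933427E11Rik, was at -0.06, and 9030619P08Rik before Ly6h was at 1.24 with an adjusted p of 0.189.

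Within 1 Mb of the outermost members, 53 genes that were neither members nor listed relatives were measured, Ly6g6g among them. Of these 53, 1 rose (1.89%) and 3 fell (5.66%), with a median difference of -0.05. In the rest of chromosome 15, 47 of 658 genes rose (7.14%) and 34 fell (5.17%), with a median of 0.03. The gene that rose was Plec, which encodes the cytoskeletal linker plectin, by 0.86 (adjusted p = 0.0111), with all 6 HCC above all normal livers. Those that fell were BC024139 by 2.57 (adjusted p = 0.000322), Adck5 by 0.72 and 2810039B14Rik by 0.63. The calls of Adck5 and 2810039B14Rik were lost without any of 9 and 11 single arrays (adjusted p up to 0.0825 and 0.0972). Apart from Ly6d, the highest difference among the 66 measured genes was the 1.24 of 9030619P08Rik.

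**Figure D5:**
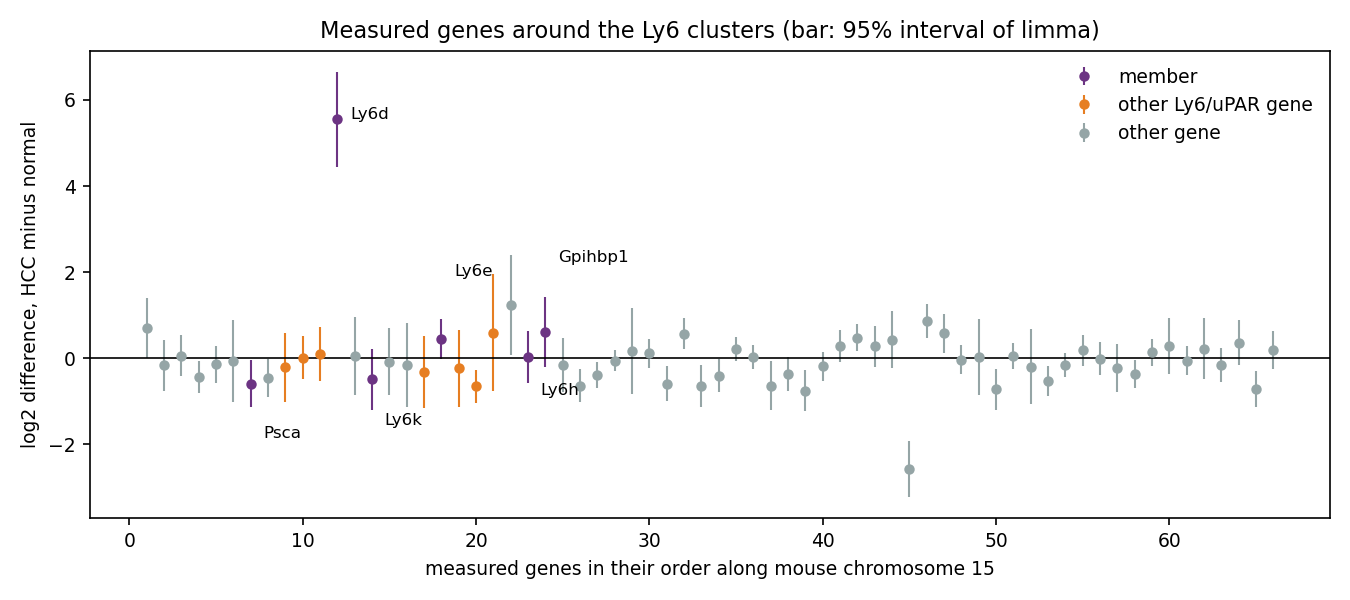
Log2 difference, HCC minus normal liver (vertical axis), of the 66 measured genes from 1 Mb before to 1 Mb after the outermost members. Genes stand in their order along chromosome 15 (horizontal axis), and bars are 95% intervals of limma. Members are purple, the listed other Ly6/uPAR genes orange and all remaining genes, Ly6g6g included, grey. Ly6d stands alone at 5.55, and its neighbours in the order lie near 0.

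Because most Ly6 proteins need a GPI anchor, the genes that build and attach it were counted. Of 28 measured, 1 rose and 1 fell, against 5.27% and 5.49% of all genes, with a median difference of -0.07. Pigp, a subunit of the enzyme that starts anchor synthesis, rose by 0.76 ± 0.15 (SE, adjusted p = 0.00752), with all 6 HCC above all normal livers. Pigl, the deacetylase of the step that follows, fell by 1.07 ± 0.20 (adjusted p = 0.00551), with all 6 HCC below. The mean per array of the list lay between 8.83 and 9.15 in HCC and between 8.92 and 9.10 in normal liver.

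Markers of T and NK cells and of neutrophils and monocytes, cells that carry other Ly6 proteins, were also counted. Of 12 T and NK cell markers none rose and 1 fell by limma, against 5.27% and 5.49% of all genes. The median difference was 0.48, with 8 positive, against -0.04 over all genes. The gene that fell was Cd5, by 0.68 (adjusted p = 0.0304), a call lost without any of 8 single arrays (up to 0.0703). The T and NK cell list had a mean per array between 6.28 and 7.40 in HCC and between 6.0 and 6.67 in normal liver. Of 12 neutrophil and monocyte markers none passed by limma and 2 had an unadjusted p under 0.05. Their median difference was 0.58, with 10 positive. The smallest p was that of the chemokine receptor Ccr2, at a difference of 1.10 (adjusted p = 0.141). The neutrophil and monocyte list had a mean per array between 7.45 and 9.36 in HCC and between 7.21 and 8.22 in normal liver. HCC 6 was the highest in both lists.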

How the data were processed

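The authors deposited 1 intensity per probe set and array, linear and scaled to a common trimmed mean, per the values of the deposited table; how probes were summarised is not stated in any source used here. Per the labels' protocols, 1 microgram of total RNA was labelled with biotin after one-cycle cDNA synthesis. From the deposited intensity values, log2(intensity + 16) was quantile normalized over all probe sets. The 64 control probe sets were left out. Probe sets were named from the platform annotation, with symbols updated by gene ID to RefSeq: 34945 named 1 gene, 932 several and 9160 none, and only the first kind was given a gene name.

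A two-sided limma fit (lmFit and eBayes; limma 3.58.1, R 4.3.3) set HCC against normal liver on 45037 probe sets with Benjamini-Hochberg adjustment over all of them and a threshold of 0.05. For lists, each gene was its brightest probe set. Of 199 entries in 11 lists, 173 matched a symbol, 1 matched through a synonym, and 25 had no probe set of their own here. In each list, the text names at most 3 called genes, those of greatest size, or the gene of smallest p where none was called; other names are marked in the text. Members and lists were chosen with earlier results of these data known. The fit was tested on simulated data. Deviations from the group means correlated at -0.0177 to 0.0636 between arrays of equal number, so replicate numbers were not taken as pairs. Other pseudocounts, normalizations, variance models, filters, array sets and an exact permutation test were tried. Python 3.11.15, numpy 2.4.6, pandas 2.3.3 and matplotlib 3.10.9 served for the plots.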

Additional observations from a re-analysis of the deposited data

Results flagged for a closer look

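Among 16 sets of 6 arrays (8 probe sets in each group), 3 had 1 array far from the others. Chance gives about 1 in 20 for independent sets of normally distributed values. These sets share arrays, and those flagged were of dim probe sets, so 3 of 16 was not tested as an excess. All 3 were in normal liver. Ly6h was at 5.86 in normal 5 against 4.70 in the next highest normal liver, and this gap took up 0.849 of the group's range. Ly6k, by its brighter probe set, was at 5.24 in the same liver, normal 5, against 6.63 in the next lowest, with a gap of 0.719 of the range. Psca was at 6.86 in normal 2 against 5.62 in the next highest, with a gap of 0.783 of the range. No tumour was flagged in this way for any member, Ly6d included.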

How the results depend on the processing

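The number of called probe sets among the members other than Ly6d was 0 in all alternatives, of which leaving out dim probe sets kept only 3 of 7, those of Ly6e and Gpihbp1. The difference of Ly6d kept its direction throughout and ran from 5.21 to 5.86 with 1 array left out. Reversed signs were those of Ly6h with median centring (-0.058), with Y-linked arrays alone (-0.15) and within -0.13 to 0.23 with 1 array left out, of the dimmer Ly6k probe set in arrays without Y-linked signal (0.13), and of Glul in the same arrays (0.87). Over all lists, 13 genes were higher and 8 lower. They became 7 and 0 in arrays with Y-linked signal, 0 and 0 in those without, 7 and 1 at an adjusted p of 0.01, and 11 to 16 and 3 to 9 with 1 array left out, while 5 were lower with the replicate block, which left Ly6d at 5.55 and took the calls of 6 named genes, Sprr1a, Plec, Ly6g2, Cd5, Adck5 and 2810039B14Rik (adjusted p from 0.0623 to 0.0961), and left 1 of 2 lower calls in the lipoprotein lipase list. Near the members 1 gene was higher and 3 lower. These became 3 and 7 with a pseudocount of 64, 3 and 9 without dim probe sets, 4 and 6 with a trended robust model, 0 and 1 with Y-linked signal, 0 and 0 without it, 0 and 1 at 0.01, and 1 to 3 for both with 1 array left out. With a pseudocount of 1 and with the replicate block 1 was lower, and with the Y-linked covariate 3 were higher. The cause was not tested, except that the sets with and without Y-linked signal hold fewer arrays. Whether dim members such as Ly6h lay above background could not be read, since the file holds no detection call.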

Other observations

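The brighter Ly6e probe set was lower in the arrays without Y-linked signal in both groups. It was at 14.08 and 14.16 in HCC 1 and HCC 4 against 14.64 to 15.14 in the other 4 HCC, and at 13.71 and 13.95 in normal 1 and normal 3 against 14.03 to 14.50 in the other 4 normal livers. Arrays with the signal were higher by 0.63 ± 0.16 (SE) in a fit with both terms, chosen after the values were seen, and this did not pass over all probe sets (limma adjusted p = 0.399, with 0.0577% of probe sets called). The dimmer Ly6e probe set differed by 0.11 ± 0.24.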
